A study of Homo sapiens with 4 samples.

Results

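H3K27Ac, the acetyl mark on histone H3 that is found at active promoters and enhancers, was examined at 10 genes of DNA methylation and of recurrent epigenetic mutation in AML. They were DNMT1, DNMT3A, DNMT3B, TET1, TET2, TET3, IDH1, IDH2, ASXL1 and ASXL2. These 10 of the 20037 protein-coding genes in the GRCh38.p14 annotation were chosen by name, by a rule that uses no measured value. Chromatin came from MOLM13, an established line of human AML that carries MLL1-r, and was profiled by ChIPmentation, a form of ChIP-Seq with adapters inserted by Tn5. There was 1 library of control cells and 1 of cells exposed for 16 h to SNDX-50469, a Menin inhibitor, at 500 nM. The label of the control gives its treatment as none, while the treatment description names DMSO as the vehicle arm. Each condition has 1 library of 1 cell line. No test between conditions was therefore made, and a difference between them cannot be told apart from a difference between 2 libraries.

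DNA methylation is set by the DNMT enzymes, which add a methyl group to cytosine in CpG dinucleotides, and is reversed through oxidation of that methyl group by the TET enzymes. TET enzymes use alpha-ketoglutarate as a cosubstrate, which IDH1 and IDH2 produce and from which their AML mutants make hydroxyglutarate, an inhibitor of TET activity. ASXL1 and ASXL2 belong to a different branch, as partners of the deubiquitinase BAP1 that acts on histone H2A. DNMT3A, TET2, IDH1, IDH2 and ASXL1 are among the genes recurrently mutated in AML.

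The peak list of each library gives positions, so each gene was described by the length that its peaks covered. "Near" is the 10001 bp within 5 kb of the outermost annotated 5′ end, and "the rest" is the remaining gene body with 5 kb on both sides. Control length that was also covered in the SNDX-50469 list is called kept. The control list held 245875 peaks over 224 Mb, the SNDX-50469 list 54061 peaks over 29.4 Mb, and the smallest −log10 p in the lists was 2.68 and 3.93, respectively. The lists give no read totals, so sequencing depth is unknown. The cell identity was read from the control list: 10 of 10 markers of a myeloid AML line had at least 1 kb of control peaks near the 5′ end, against 3 of 8 markers of other lineages. ALB, EPCAM and HBB had no control peak there.

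All 10 genes had control H3K27Ac near the 5′ end, as did 67.3% of protein-coding genes. Covered length was lower in the SNDX-50469 library at 10 of 10 genes, where 98.1% of all genes with a control peak were lower, so this direction was shared by nearly the whole genome. The windows of TET3, IDH2 and ASXL1 reach into BOLA3, ZNF710 and NOL4L, and a protein-coding gene of unknown strand overlaps TET2. No known 5′ end of another protein-coding gene lies in a window, and non-coding genes were not looked at. What was left lay at the 5′ ends. Near the 5′ ends the 10 genes together had 40454 bp in control, 9922 bp after SNDX-50469 and 9552 bp kept, which is 23.6% of the control length. Over the rest they had 138645 bp in control, 3004 bp after SNDX-50469 and 591 bp kept, or 0.426%. The same shares over the 19675 genes with a known strand were 20.4% near and 7.88% over the rest. Of the members' kept length, 94.2% lay near the 5′ end, against 51.6% of that of all genes. In the values for all genes, 5′ ends of neighbouring genes inside a window were not left out. The members' windows hold no known one, so these shares compare unlike regions. When the control list was shortened from its weakest peaks to the covered length of the SNDX-50469 list, only 3 of the genes had a control peak left. Covered length was then lower after SNDX-50469 at 2 genes, DNMT1 and TET3, and higher at 7. This cut left the SNDX-50469 list whole and also removed the control start peaks of IDH1, IDH2 and ASXL1, whose −log10 q was 6.32, 7.32 and 5.85. With a −log10 q of at least 5 required in both lists, 6 genes had a control peak, and covered length was lower at all 6.

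The genes differed in what remained near the 5′ end. Length was kept there at 7 of 10 genes, beside 50.8% of all genes with control length there, and DNMT3A, DNMT3B and TET1 kept none. Over the rest, 2 of 10 genes, DNMT3A and TET3, kept any length, beside 32.0% of all genes. The kept share near the 5′ end was above that over the rest at 7 of 10 genes, beside 48.1% of all genes with control length in both places. In these comparisons too, the windows of all genes can hold 5′ ends of other genes. The median kept share near the 5′ end was 21.7% over the members and 1.85% over all genes, and over the rest both medians were 0. The near median of all genes differed with their control length near the 5′ end. It was 0 up to 2500 bp, 9.27% from 2500 to 5000 bp and 14.8% from 5000 to 7500 bp. In these ranges 1000 of 5288, 2208 of 3619 and 1933 of 2543 genes, respectively, kept length near the 5′ end. Every member fell within these ranges. By family, the near share was 13.5% for the 3 DNMT genes, 34.1% for the 3 TET genes, 9.14% for the 2 IDH genes and 52.7% for the 2 ASXL genes.

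**Figure D1:**
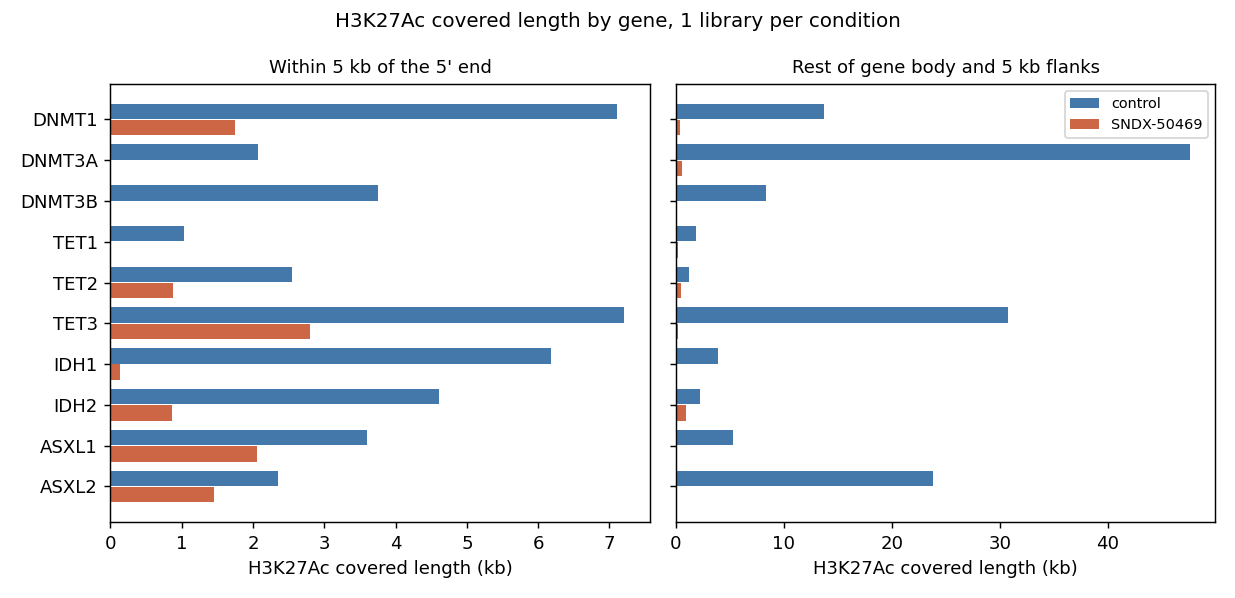
Length covered by H3K27Ac peaks (kb) at each gene in the control library (blue) and the SNDX-50469 library (orange), within 5 kb of the 5′ end (left) and over the rest of the gene body with 5 kb flanks (right; the axes differ). Bars are single libraries without error bars. Near the 5′ end 7 genes have an orange bar, and over the rest the 47588 bp of DNMT3A in control stand beside 610 bp after SNDX-50469.

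The DNA just upstream of the starts is shown for 7 starts, chosen with their values known as examples of starts that kept H3K27Ac and starts that did not. ASXL2 and DNMT3A each hold both kinds. Each line gives the 250 bases before the start, 5′ to 3′ on the gene's own strand, from the RefSeq promoter table on GRCh38.p14, with CpG dinucleotides in capitals. The 3 starts of DNMT1, ASXL1 and the outer start of ASXL2 kept length within 1 kb, as did the internal start of DNMT3A. The outer start of DNMT3A, the inner start of ASXL2 and the outer start of TET1 kept none.
DNMT1, kept, chr19:10194954-10195203, minus strand: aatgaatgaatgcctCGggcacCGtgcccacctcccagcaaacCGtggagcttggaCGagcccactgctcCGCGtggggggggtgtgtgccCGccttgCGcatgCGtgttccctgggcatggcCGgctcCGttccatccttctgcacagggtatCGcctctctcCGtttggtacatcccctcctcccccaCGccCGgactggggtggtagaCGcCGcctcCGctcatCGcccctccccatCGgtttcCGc
ASXL1, kept, chr20:32358081-32358330, plus strand: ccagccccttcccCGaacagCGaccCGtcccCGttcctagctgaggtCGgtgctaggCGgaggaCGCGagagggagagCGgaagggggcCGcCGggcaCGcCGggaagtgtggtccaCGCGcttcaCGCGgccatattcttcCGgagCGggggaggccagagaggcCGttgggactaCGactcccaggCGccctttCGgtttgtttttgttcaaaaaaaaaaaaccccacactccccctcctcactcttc
ASXL2 outer, kept, chr2:25878488-25878737, minus strand: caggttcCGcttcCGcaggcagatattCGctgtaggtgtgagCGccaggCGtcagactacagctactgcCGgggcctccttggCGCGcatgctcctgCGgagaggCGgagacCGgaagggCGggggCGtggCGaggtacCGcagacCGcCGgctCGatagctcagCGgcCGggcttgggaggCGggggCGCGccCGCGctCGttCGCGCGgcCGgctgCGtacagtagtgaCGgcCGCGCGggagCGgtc
ASXL2 inner, not kept, chr2:25794692-25794941, minus strand: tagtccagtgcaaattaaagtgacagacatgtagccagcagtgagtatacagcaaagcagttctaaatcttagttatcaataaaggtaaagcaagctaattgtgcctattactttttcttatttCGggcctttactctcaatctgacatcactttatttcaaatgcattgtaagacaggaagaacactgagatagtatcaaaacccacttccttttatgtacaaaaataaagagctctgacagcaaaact
DNMT3A outer, not kept, chr2:25342591-25342840, minus strand: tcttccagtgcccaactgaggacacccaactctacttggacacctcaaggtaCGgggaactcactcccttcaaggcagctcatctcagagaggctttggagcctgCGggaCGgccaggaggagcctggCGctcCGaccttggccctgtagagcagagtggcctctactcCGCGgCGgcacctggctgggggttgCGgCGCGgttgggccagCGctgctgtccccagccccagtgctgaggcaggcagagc
DNMT3A internal, kept, chr2:25252316-25252565, minus strand: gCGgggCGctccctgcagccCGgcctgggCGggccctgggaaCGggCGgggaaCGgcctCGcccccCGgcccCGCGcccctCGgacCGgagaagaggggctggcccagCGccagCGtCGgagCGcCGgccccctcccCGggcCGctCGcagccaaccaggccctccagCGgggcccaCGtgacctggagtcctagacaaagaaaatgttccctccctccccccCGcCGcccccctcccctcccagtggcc
TET1 outer, not kept, chr10:68560087-68560336, plus strand: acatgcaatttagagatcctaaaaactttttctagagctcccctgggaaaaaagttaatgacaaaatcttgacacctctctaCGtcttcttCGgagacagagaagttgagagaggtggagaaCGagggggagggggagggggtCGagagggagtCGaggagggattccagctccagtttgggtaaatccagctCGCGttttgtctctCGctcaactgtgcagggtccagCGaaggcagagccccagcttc

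CpG counts were compared within the 3 genes that hold both kinds of start. At ASXL2 the kept outer start had 36 CpG and the inner start 1. At TET3 the kept start had 37 and the other 27, which is more than the 21 at the kept start of DNMT1 and the 23 at that shown for ASXL1. At DNMT3A the 3 kept internal starts had 25, 15 and 22 and the 3 outer starts 21, 33 and 12, so the counts overlapped. The outer start of TET1 had 9. In the promoter table the 10 genes have 23 starts, and all 23 had control length within 1 kb, beside 61.0% of the starts of protein-coding genes. Length was kept within 1 kb of 14 of 23 starts, beside 50.1% of all starts with control length there. The median CpG count was 22.5 at the 14 kept starts and 11 at the other 9, and the median of all 35116 promoters was 11. The counts overlapped between the groups: the kept start of IDH2 had 4 CpG, and a DNMT3A start that kept none had 33. For IDH2, DNMT3B and TET3 the promoter table lacks the outermost 5′ end. Its first start lies 1847 bp inside IDH2, 17467 bp inside DNMT3B and 1279 bp inside TET3. Their counts therefore do not describe the DNA before the outermost 5′ ends of these genes. Within 1 kb of the IDH2 start 241 bp were kept, and the DNMT3B start, with 3 CpG, is among the 9 others. Starts of 1 gene lie close together and share sequence and peaks, so they are not independent, and the difference was not tested.

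Short motifs were counted on both strands of the same 250 bases. GGGCGG, the GC box, was held by 11 of 23 member starts and 42.6% of all promoters. CCAAT was held by 5 of 23 and 32.0%, and TATAAA by 1 of 23 and 10.7%. CCGGAAG, an ETS-type motif, was found at 3 of 23 starts and in 8.52% of all promoters. The 3 were the outer start of ASXL2 and a pair of ASXL1 starts 13 bp apart, which share nearly all of their sequence.

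DNMT1, the maintenance methyltransferase that copies methylation onto newly made DNA (chr19:10133346-10194953, minus strand), kept a shortened peak at its start. Near the 5′ end it had 7108 bp in control and 1753 bp after SNDX-50469, all of it kept, or 24.7%. A control peak of 5262 bp (chr19:10192111-10197372) spanned the start, with fold 6.98 over background and a −log10 q of 9.93, and ranked 2191 of 245875 by fold. In the SNDX-50469 list a peak of 1645 bp (chr19:10193587-10195231) stood inside it, with fold 6.38 and rank 500 of 54061. The treated peak reached 1366 bp past the 5′ end, where the control peak reached 2842 bp, and most of the upstream part of the control peak was not covered. Over the rest DNMT1 had 13688 bp in control, of which none was kept. A second wide control peak of 4283 bp lay 64562 to 68844 bp from the 5′ end, beyond the 3′ end of the gene, and shared no base with the SNDX-50469 list.

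DNMT3A, the de novo methyltransferase most often mutated in AML (chr2:25227874-25342590, minus strand), had the longest control cover of the 10 genes, and little of it was covered after SNDX-50469. Its control peaks covered 49664 bp, or 39.8% of the gene with its flanks, a longer cover than at 97.4% of the genes with a known strand. The SNDX-50469 list covered 610 bp, of which 424 bp were kept, or 0.854%. Most of the control cover came from 9 peaks of 2 kb or more that summed to 37306 bp and lay 26433 to 80353 bp inside the gene. The widest was 9735 bp (chr2:25273335-25283069) with fold 3.84, and the strongest was 6642 bp (chr2:25290841-25297482) with fold 4.82 and a −log10 q of 4.75. None of the 9 shared a base with an SNDX-50469 peak.

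A control peak of 1131 bp (chr2:25341310-25342440, fold 4.35, −log10 q 3.93) lay within 1 kb of the 3 outer DNMT3A starts. It covered only the innermost of them, and nothing was covered there after SNDX-50469. The 3 internal starts lie 90275 to 90459 bp downstream and belong to shorter transcripts. A control peak of 535 bp (chr2:25251603-25252137, fold 2.96) lay within 1 kb of them and covered only the innermost. An SNDX-50469 peak of 475 bp (chr2:25251714-25252188, fold 3.49) covered 424 bp of that control peak. Both peaks were weak, with a −log10 q of 1.57 and 1.43, and the treated peak ranked 39268 of 54061.

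DNMT3B, the second de novo enzyme (chr20:32762385-32809356, plus strand), was the only one of the 10 without any SNDX-50469 peak. It had 3756 bp in control near the 5′ end and 8318 bp over the rest. Its 25 control peaks were narrow, with a median of 307 bp, and 5 of them had a −log10 q of at least 2. Of these control peaks 0 of 25 were kept (Wilson 95% interval 0 to 13.3%, counting error only), beside 8.24% of all control peaks. The strongest, of 855 bp at the 5′ end (chr20:32762379-32763233), had fold 4.70 and a −log10 q of 4.62, which is above the value of the TET2 start peak that was kept.

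TET1 (chr10:68560337-68694487, plus strand), an oxidase of methylcytosine known from early development, had little H3K27Ac in either library. Control peaks covered 1030 bp near the 5′ end and 1840 bp over the rest, or 1.99% of the gene with its flanks. The peak at the outer start was 704 bp with a −log10 q of 1.47, and the strongest of its 6 control peaks, 1638 bp at internal starts 39931 and 40137 bp downstream (chr10:68599422-68601059), had fold 3.12. A single SNDX-50469 peak of 201 bp lay 60643 bp from the 5′ end and shared no base with control. None of the 6 control peaks was kept (Wilson 95% interval 0 to 39.0%), beside 8.24% of all control peaks. Their −log10 p was 2.75 to 3.45, below 3.93, the smallest in the SNDX-50469 list. Peaks this weak are absent from that list, so the loss at TET1 cannot be told apart from the unequal cut-offs.

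TET2, the TET gene mutated in AML (chr4:105145875-105279803, plus strand), held most of its control H3K27Ac in a start peak. That peak was 2545 bp in control (chr4:105145379-105147923, fold 4.51, −log10 q 4.25) and made up all control length near the 5′ end. After SNDX-50469 a peak of 879 bp (chr4:105146174-105147052, fold 4.16) stood inside it, so 34.5% was kept. Both annotated starts, which lie 1001 bp apart, retained length within 1 kb, 702 bp at the outer and 879 bp at the inner one. The other 4 control peaks of TET2 spanned 1183 bp and none was kept, and an SNDX-50469 peak of 460 bp (chr4:105192157-105192616, fold 3.46) had no control peak.

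TET3 (chr2:73983631-74135498, plus strand), the third of these oxidases, had the widest start peak of the 10 genes in both lists. In control it was 8182 bp (chr2:73981506-73989687, fold 6.83, −log10 q 9.83, rank 2451), and after SNDX-50469 it was 2802 bp (chr2:73983281-73986082, fold 6.59, −log10 q 6.94, rank 399 of 54061). The treated peak lay wholly within the control peak, and 38.9% of the control length near the 5′ end was kept. The start at 1279 bp inside the gene kept 2001 of 2001 bp within 1 kb, whereas the start at 19061 bp kept 0 of 1480 bp. Over the rest TET3 had 30792 bp in control and kept 167 bp, in a control peak of 4125 bp (chr2:74002809-74006933) that reached from 19178 to 23302 bp.

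IDH1, the cytosolic isocitrate dehydrogenase (chr2:208236227-208255071, minus strand), had a strong and wide control start peak of which almost nothing was left. That peak was 6590 bp (chr2:208249468-208256057, fold 5.60, −log10 q 6.32), and IDH1 had 6183 bp near the 5′ end in control. After SNDX-50469 a single peak of 128 bp (chr2:208254093-208254220, fold 3.58, −log10 q 1.54) remained, which is 2.07%. This share was above that of 50.3% of all genes with control length near the 5′ end. Genes with 5000 to 7500 bp of control there had a median of 14.8%.

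IDH2, its mitochondrial counterpart (chr15:90083045-90102468, minus strand), kept more. Near the 5′ end control covered 4603 bp and 858 bp, or 18.6%, were kept, in a peak of 617 bp at the 5′ end (chr15:90101890-90102506, fold 4.92, rank 1932) and one of 241 bp (chr15:90100460-90100700, fold 3.86). Both lay in 1 control peak of 2808 bp (chr15:90099883-90102690, fold 5.90, −log10 q 7.32). The SNDX-50469 list also held peaks of 727 and 213 bp over the rest of IDH2 that no control peak covered, while none of the 2193 bp of control there was kept.

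ASXL1 (chr20:32358331-32439319, plus strand), a chromatin regulator truncated by mutation in AML, kept most of its near length. It had 3599 bp in control, 2052 bp after SNDX-50469 and 1881 bp kept, or 52.3%, a share above that of 93.0% of all genes. The start peak was 2933 bp in control (chr20:32356720-32359652, fold 5.18, −log10 q 5.85) and 1949 bp after SNDX-50469 (chr20:32357875-32359823, fold 5.72, rank 851). The treated peak extended beyond the control peak on the gene side, to 1492 bp against 1321 bp from the 5′ end. Over the rest 5297 bp were covered in control and none was kept.

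ASXL2 (chr2:25733753-25878487, minus strand), the paralog of ASXL1, held the strongest control peak of the 10 genes. It was 1433 bp (chr2:25877033-25878465) with fold 11.2 and a −log10 q of 19.7, and ranked 139 of 245875. The SNDX-50469 peak at the same start was 1450 bp (chr2:25877215-25878664) with fold 5.27 and ranked 1299 of 54061, and 1251 bp, or 53.3% of the near control length, were kept. A second strong control peak of 7631 bp (chr2:25737979-25745609, fold 5.79, −log10 q 6.77, rank 4955) lay 132878 to 140508 bp from the 5′ end, close to the 3′ end of the gene. It was not covered after SNDX-50469. The inner start, 83796 bp downstream, kept 0 of 1264 bp.

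**Figure D2:**
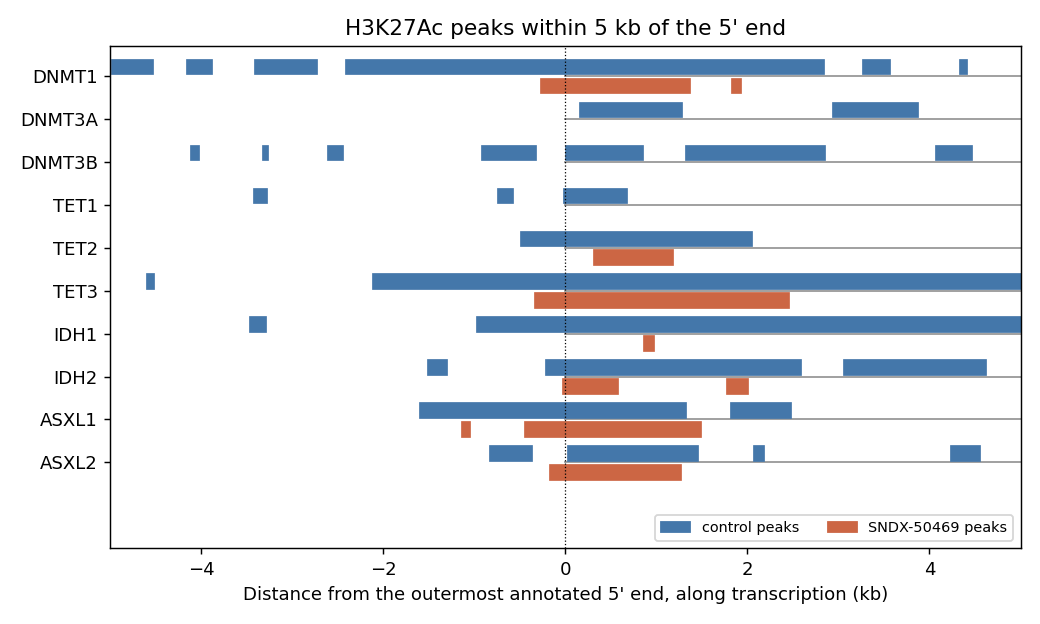
Control peaks (blue, upper row of each gene) and SNDX-50469 peaks (orange, lower row) within 5 kb of the outermost annotated 5′ end (kb, along transcription; the grey line is the gene body), cut at the edges of the window. Orange peaks stand at 7 genes, the farthest ending 2451 bp after the 5′ end of TET3, and DNMT3A, DNMT3B and TET1 have none.

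**Figure D3:**
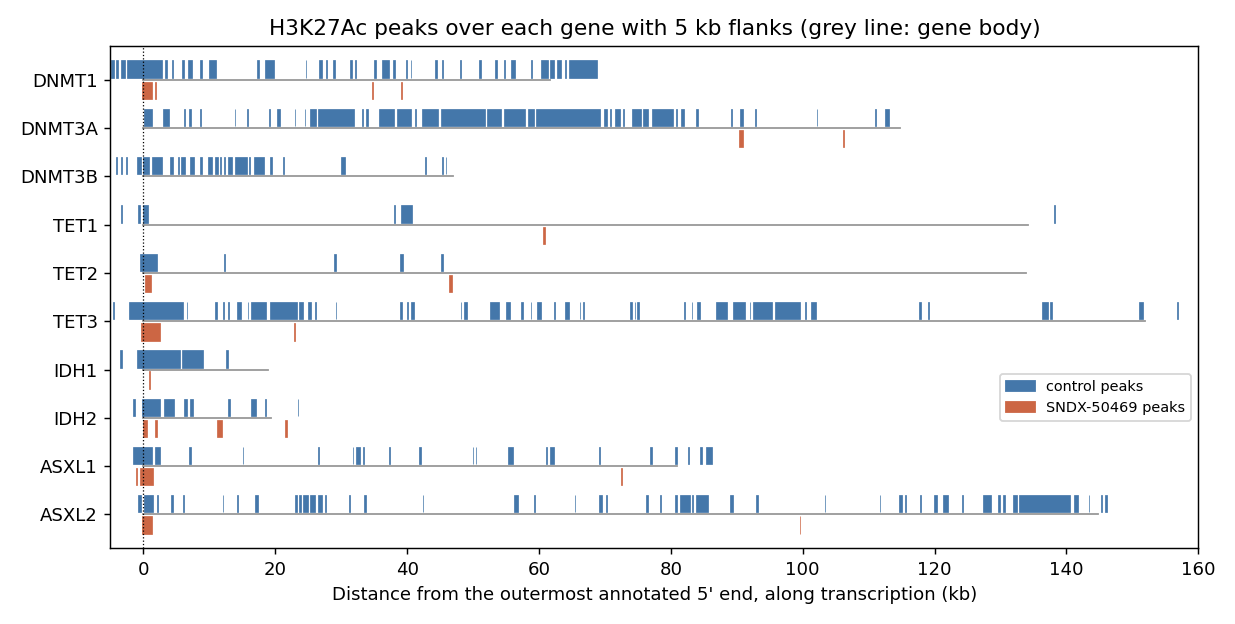
Control (blue) and SNDX-50469 (orange) peaks over each gene with 5 kb on both sides, by distance from the 5′ end (kb, along transcription). The run of wide control peaks inside DNMT3A, the wide peak near the 3′ end of ASXL2 and the clusters inside TET3 have no orange peak beneath them except the 167 bp one inside TET3.

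Kept H3K27Ac was concentrated in the first 2 kb of the transcribed side. In the 1 kb after the 5′ end control peaks covered 93.5% of positions over the 10 genes and SNDX-50469 peaks 54.1%, with 57.6% of the control length kept. From 1 to 2 kb after it 35.8% was kept, and from 2 to 5 kb 3.66%. On the upstream side 18.7% was kept in the 1 kb before the 5′ end and 3.64% from 2 to 1 kb before. Over all genes the kept share was 36.1% in the first 1 kb after and 31.8% in the 1 kb before, and it was still 7.00% beyond 50 kb, where the members kept 0.563%. The profile of all genes includes 5′ ends of neighbouring genes, which the members' windows are not known to hold. The 5′ end here is the outermost annotated one, and starts inside the gene move this profile.

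**Figure D4:**
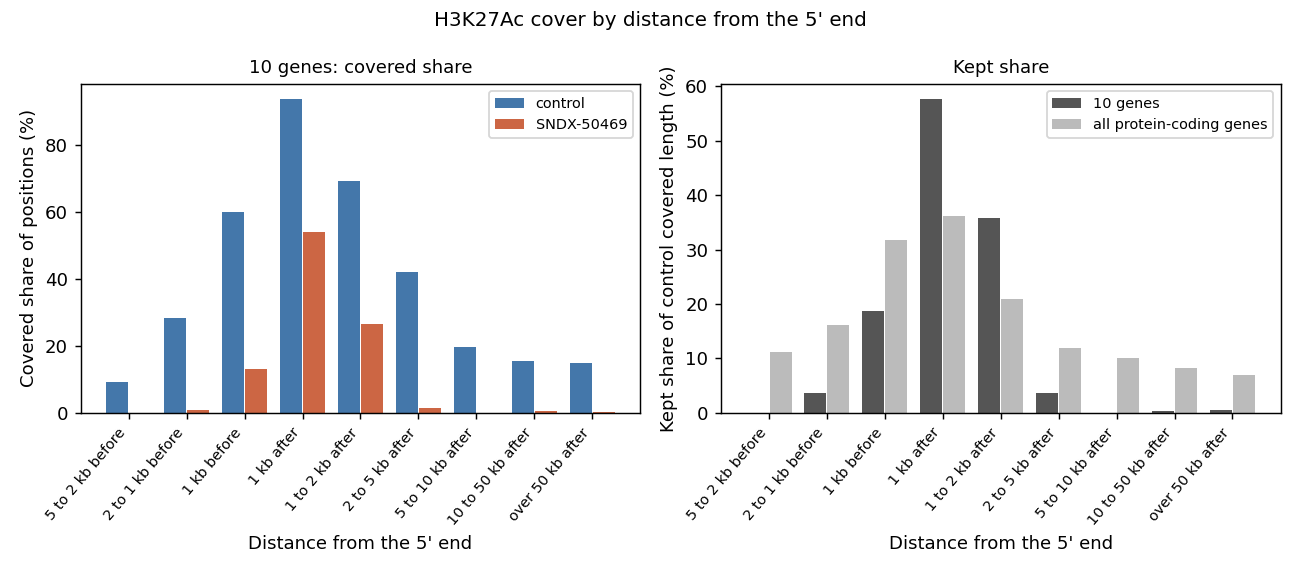
Left, percent of positions covered by control (blue) and SNDX-50469 (orange) peaks over the 10 genes, by distance before and after the 5′ end. Right, percent of the control length kept over the 10 genes (dark) and over all protein-coding genes (light). Bars are sums over genes of single libraries, and the dark bars are highest from 0 to 2 kb after the 5′ end.

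The peaks that were kept were, with few exceptions, the strong ones at starts. The 10 genes held 240 control peaks with a median width of 302 bp, 32 of them near the own 5′ end, and 9 of 240 were kept, beside 8.24% of all control peaks. Of the 7 member peaks with −log10 q values of 5 or more, the 6 near the 5′ end were all kept, beside 83.7% of such peaks at all genes. They belonged to DNMT1, TET3, IDH1, IDH2, ASXL1 and ASXL2. Kept here means 1 bp shared: the covered part of the peak was 1.94% at IDH1, 30.6% at IDH2, 33.3% at DNMT1, 34.2% at TET3, 64.1% at ASXL1 and 87.3% at ASXL2. With 50% of the peak required, 2 of the 6 were kept. The remaining one, the peak near the 3′ end of ASXL2, was not kept, beside 70.5% of peaks of that strength away from 5′ ends. At −log10 q values from 2 to 5, 1 of 9 near peaks and 1 of 40 others were kept, beside 19.2% and 11.1% of all such control peaks. Under 2 these counts were 0 of 17 and 1 of 167, beside 3.36% and 3.40%. Of 16 member peaks of 2 kb or more that were not near the own 5′ end, 1 was kept. Of all control peaks this wide and not near the 5′ end of any gene, 35.0% were kept, a share not matched for strength. All of the 16 but the ASXL2 peak had −log10 q values from 2 to 5. At that strength 11.1% of all control peaks away from 5′ ends, of any width, were kept. Of the 16, 9 lie in DNMT3A, and they are not independent.

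**Figure D5:**
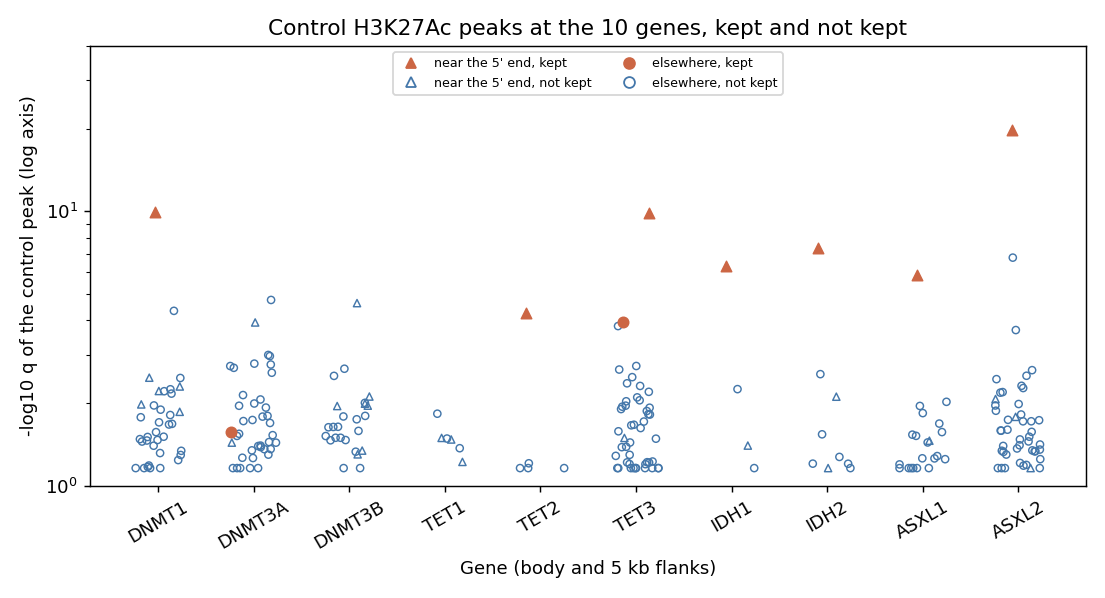
The −log10 q of each control peak (log axis) at the 10 genes; triangles are near the 5′ end and circles elsewhere, and filled orange symbols are kept. Points are spread sideways for visibility. The 6 triangles above 5 are filled, and the open circle above 5 is the ASXL2 peak near its 3′ end.

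The SNDX-50469 list held 21 peaks at the 10 genes, 12 shared with control and 9 without a control peak, beside 43.0% of all SNDX-50469 peaks without one. The 12 shared peaks were 103 to 2802 bp wide, 10 of them were near a 5′ end, and their −log10 q reached 6.94. The 9 others lay at 7 genes, none near the 5′ end. They were 102 to 727 bp wide with fold 3.46 to 3.81 and a −log10 q from 1.39 to 1.88, which is close to the smallest value in that list.

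A list of 30 other genes of the same processes was read in the same way, and 29 of 29 with a control peak had lower covered length after SNDX-50469, beside the 98.1% of all genes. Control length near the 5′ end was found at 28 of 30, beside 67.3% of all genes, and 21 of 28 kept some of it, beside 50.8%. The list kept 23.7% of 137559 bp near the 5′ ends and 6.36% of 247960 bp over the rest, with 9 of 27 genes keeping length there, beside 32.0% of all genes. The groups of this list are small, and their counts are given as a description. Among partners of maintenance methylation 4 of 5 kept near length. UHRF1, which brings DNMT1 to hemimethylated DNA, kept 29.1%, and UHRF2 54.5%. Of the readers of methylated CpG 3 of 5 genes kept length, and of the base excision repair genes APEX1, MBD4, SMUG1 and TDG 3 of 4, with SMUG1 the exception. Among the enzymes of oxoglutarate and hydroxyglutarate 4 of 6 kept length, with 6.11% at OGDH. In the BAP1 and ASXL group 7 of 8 kept near length, with 56.0% at FOXK2 and 6.38% at FOXK1, while ASXL3 had no control peak.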

How the data were processed

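H3K27Ac was profiled by ChIPmentation in 2 MOLM13 libraries. Input libraries of the same cells, 2 in number, were left out. The submitters' processing notes name Trim Galore 0.6.5, Bowtie2 2.3.4.2, Picard 2.9.0, MACS2 2.1.2 and GRCh38 with no role or order, whereas the study's supplementary methods name TopHat2 and hg38. Options and the use of input in peak calling are not given in the sources used here. For each library the authors deposited broad peaks, with a score (not used), a ratio, which is the fold over background, and the −log10 of the p-value and q-value. Since each deposited value refers to its own library's background, lists were compared by position alone. The depth is unknown.

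Python 3.11.15 with numpy 2.4.6, pandas 2.3.3, scipy 1.17.1 and matplotlib 3.10.9 was used. The kept share is the control length that SNDX-50469 peaks also cover, in percent, with at least 1 bp shared for a peak to count as kept. The strand came from the RefSeq promoter table for 15843 genes and by symbol from GENCODE for 3832, and 362 genes had none. Wilson 95% intervals hold counting error alone and treat neighbouring peaks as independent, which they are not. The code was tested on simulated peak lists. Named were all 10 genes and, of 30 pathway genes, the 3 with the longest control cover and the 3 with the highest near kept share over at least 1 kb, of which 1 is not reported here. The genes, lists and rules were chosen with earlier results of these data known. In sequence counts a motif and its reverse complement were both searched.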

Additional observations from a re-analysis of the deposited data

How the results depend on the processing

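No paired analysis was possible because there was 1 library of each kind, and for the same reason no library could be left out. In all 13 alternatives were run, 1 of them, which treats every annotated start as a 5′ end, chosen after seeing the data. The near kept share of 23.6% became 42.0% with the control list shortened to equal covered length. Counted in peaks the near share was 21.9% with 1 bp shared and 6.25% with 50% of a peak covered. It also moved with the window, to 36.2% at 2 kb and 16.3% at 10 kb, and was 16.6% with every annotated start. At 50% overlap DNMT1, TET2, TET3, IDH1 and IDH2 kept no peak near the 5′ end. The share over the rest, 0.426%, became 0 with −log10 q thresholds of 2 and of 5, at equal covered length and with every annotated start, and was 0.682% with a 2 kb window, 0.962% counted in peaks and 1.21% with a 20 kb flank. Genes with kept length near the 5′ end numbered 3 with the −log10 q threshold of 5, 3 at equal covered length and 2 at 50% overlap. With positions of other genes left out they numbered 6, because the gene of unknown strand spans the start peak of TET2. Genes with lower covered length numbered 6 of 6 with a control peak at that threshold, and 2 at equal covered length, where 7 were higher. The near share minus that over the rest turned from 2.07 to -5.23 percentage points at IDH1 with a 20 kb flank, and from -0.89 to 15.0 at DNMT3A with every annotated start, because the internal starts then count as near. With 1 library per condition and no read totals, depth and treatment cannot be told apart.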
